A study of Mus musculus with 8 samples.

Results

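*Lrp1b* and 9 further genes of the LDL receptor-related family were followed in the cortices of *Nuak1* KO and WT mouse embryos. The 10 genes are *Lrp1b*, *Lrp1*, *Lrp2*, *Lrp4*, *Lrp5*, *Lrp6*, *Lrp8*, *Vldlr*, *Lrp12* and *Sorl1*, found by gene symbol in 10 of the 21165 rows of the count table, and all 10 were among the 12699 genes that passed the filter on low counts. *Lrp1b* was chosen on the KO against WT difference measured in these same libraries, so its change is described here without a test. The other 9 genes were added by family name.

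The family consists of membrane receptors with an extracellular part built of small cysteine-rich ligand-binding repeats and YWTD propellers, 1 membrane-spanning segment and a cytoplasmic tail. Many members carry in the tail an NPXY motif, asparagine, proline, any residue and tyrosine, which binds adaptor proteins for endocytosis and for signalling. In the developing cortex, the family is known for the Reelin receptors that guide the layering of neurons, for Wnt co-receptors, and for clearance receptors that take up apolipoproteins, proteases and matrix proteins.

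NUAK1 is a kinase of the AMPK-related family that is enriched in the developing brain. RNA was taken at E18.5 from the embryonic cortex of 4 constitutive *Nuak1* KO and 4 WT embryos, with no treatment in either group, and poly-A RNA was sequenced from whole tissue. The study names *Nuak1* tm1a(KOMP)Wtsi as its floxed line and genotypes the constitutive KO by a LacZ cassette, with all mice on a C57Bl/6JRj background. Death of the KO at birth limits the model to embryonic stages. The labels list 2 males among the KO embryos and 1 among the WT embryos, from 3 litters in all, but the table's columns carry only the genotype and a running number, and libraries are named by these, as in KO library R1.

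Totals lay between 11027082 and 27014858 counts in KO and between 9643711 and 18940484 in WT, and no pair of libraries of a genotype agreed within sampling noise (smallest chi-square per degree of freedom 5.73). *Nuak1*, at chromosome 10 from 83833650 to 83903342, had between 11.1 and 20.5 normalized counts in KO and between 877 and 1445 in WT, so each column followed its label. A normalized count is the count a gene would have in a library of average effective size, and errors given as ± are SDs over the 4 libraries of a genotype. All 10 markers of cortical projection neurons and all 9 of radial glia passed the filter on low counts, whereas 0 of 6 choroid plexus markers did. KO library R1 stood apart in markers of meningeal fibroblasts, with a sum of 626 counts per 1000000 (CPM) over 9 genes. That sum was 20.6 to 30.7 in the other KO libraries and 16.8 to 23.2 in WT. KO library R1 also had the highest sums of choroid plexus markers (5.66 CPM, at most 1.29 in the other KO libraries and 1.64 in WT) and microglia markers (57.2, at most 41.1 and 40.8). The same held for endothelial markers (388, at most 321 and 314). WT library R4 had the fewest counts and the lowest sum of projection neuron markers, 1000.1 CPM. That sum lay between 1367 and 1494 in KO and between 1000.1 and 1343 in WT, so every KO library was above every WT library. The sums for radial glia (1459 to 1725 in KO, 1396 to 1983 in WT) and interneurons (165 to 184, 169 to 227) overlapped. By sign 6 of 10 projection neuron, 1 of 9 radial glia and 0 of 8 interneuron markers were higher in KO, against 45.6% of all genes tested. The part of cell composition in the results was not tested. Values without KO library R1 or WT library R4 are given for some of the results they bear on.

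The NPXY sites are shown first because they relate *Lrp1b* to its nearest relatives. They were read from GENCODE coding sequences on NCBIM37, the assembly behind mm9, by translating the longest coding transcript of each gene and searching the last 220 residues. Each line gives 30 bases of the coding strand, and capitals mark the codons of the motif.

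Lrp1b site 1: gaaatcggcAATCCATCATACaatatgtat
Lrp1b site 2: aattactccAACCCAGTATATgcaaaatta
Lrp1 site 1: gaaattggaAACCCTACCTACaagatgtat
Lrp1 site 2: aacttcaccAACCCAGTGTATgccacgctc
Lrp2 site 1: atatttgaaAACCCAATGTATgcagccaaa
Lrp2 site 2: aacttcgaaAATCCAATCTATgcagagatg
Lrp4: acctatagcAACCCCTCCTACcgaacttcc
Lrp8: aatttcgacAACCCAGTGTACaggaaaacg
Vldlr: aactttgacAATCCTGTGTACttgaagacc

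*Lrp1b*, *Lrp1* and *Lrp2* each had 2 sites, *Lrp4*, *Lrp8* and *Vldlr* 1 each, and *Lrp5*, *Lrp6*, *Lrp12* and *Sorl1* none with these letters in that window. In both *Lrp1b* and *Lrp1* the second site began 41 residues before the end of the protein. The sites lay 67 residues apart in *Lrp1b* and 34 in *Lrp1*, and 79 apart in *Lrp2*. *Lrp1b* and *Lrp1* were also of like length, 4630 and 4545 residues, and shared 60.9% of the residues in a global alignment of 4489 positions. *Lrp5* and *Lrp6* were the closest pair of the family, with 69.7% identity over aligned positions, and the Reelin receptors *Lrp8* and *Vldlr* shared 54.1%. Exact matches to the residues YWTD numbered 9 in *Lrp1b*, 10 in *Lrp1*, 4 in *Lrp2* and 12 in *Lrp4*. There were 11 in *Lrp5*, 10 in *Lrp6*, 1 each in *Lrp8*, *Vldlr* and *Sorl1*, and 0 in *Lrp12*. A looser search also allowed F in place of Y and S in place of T. It gave 14 in *Lrp1b*, 15 in *Lrp1*, 13 in *Lrp2*, 3 in *Lrp8* and 2 in *Vldlr*. Both are counts of matches, and repeats of other sequence are missed.

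*Lrp1b*, a giant endocytic receptor that is often deleted in human tumours, lies on chromosome 2 of NCBIM37 from 40450768 to 42509118 on the minus strand. It spans 2.06 Mb, with 93 exon blocks that cover 23.1 kb, and the 4 other gene models inside its span share no exon bases with it. The KO libraries R1 to R4 had 575, 549, 613 and 621 normalized counts of *Lrp1b*, and the WT libraries R1 to R4 had 399, 365, 325 and 388. Every KO library was above every WT library. The means were 589.7 ± 33.8 in KO and 369 ± 32.7 in WT (n = 4 each), which is a ratio of 1.60, and the log2 fold change from edgeR was 0.68 with a standard error of 0.08 and a 95% interval from 0.50 to 0.86. These values are of the contrast that selected the gene. Behind them stood between 361 and 991 raw counts per library in KO and between 230 and 417 in WT. KO library R1, with the high meningeal markers, lay inside the range of the other KO libraries for *Lrp1b*. Without it the log2 fold change of *Lrp1b* was 0.70, and without WT library R4 it was 0.71. Since whole tissue was sequenced, more cells that express *Lrp1b* and more of its RNA per cell cannot be told apart.

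**Figure D1:**
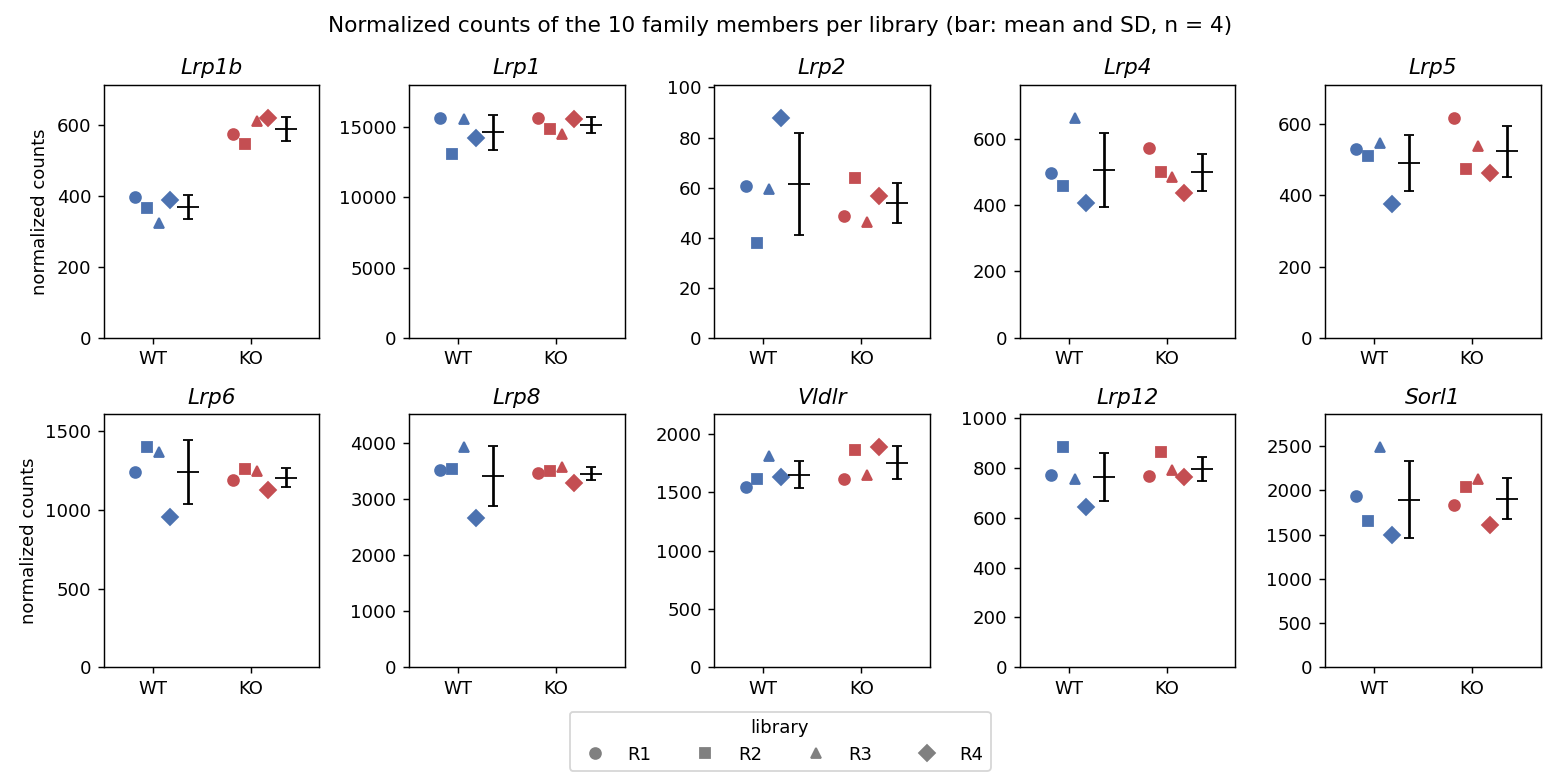
Normalized counts of the 10 genes in each of the 4 WT (blue) and 4 KO (red) libraries, 1 panel per gene with its own linear axis from 0; marker shapes stand for the libraries R1 to R4, and the bar beside each group gives the mean and SD. For *Lrp1b* the KO libraries sit between 549 and 621 and the WT libraries between 325 and 399, while in the other 9 panels the genotypes overlap.

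Among the clearance receptors, *Lrp1* is the close relative of *Lrp1b* that takes up apolipoprotein E, protease complexes and many other ligands in neurons and glia (chromosome 10, 126975217 to 127058204). The KO libraries R1 to R4 had 15660.0, 14872, 14499 and 15591 normalized counts of *Lrp1*, and the WT libraries had 15656, 13095, 15582 and 14193. The genotypes overlapped over most of their range, and *Lrp1* did not pass the test (log2 fold change 0.05, 95% interval -0.09 to 0.19, edgeR adjusted p = 0.900). Per 100 raw counts of *Lrp1*, the KO libraries R1 to R4 had 3.67, 3.69, 4.23 and 3.98 counts of *Lrp1b*, and the WT libraries had 2.55, 2.79, 2.09 and 2.74. The ratio needs no scaling between libraries, and it did not overlap between genotypes (3.89 ± 0.27 in KO and 2.54 ± 0.32 in WT, n = 4 each), as follows from the choice of *Lrp1b*. As a share of the summed counts of all 10 genes, *Lrp1b* made up 2.28% ± 0.15 in KO and 1.49% ± 0.22 in WT (n = 4 each), whereas *Lrp1* made up between 56.7% and 60.3% in KO and between 55.6% and 62.1% in WT.

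*Lrp2* (chromosome 2, 69262397 to 69424122) encodes megalin, a receptor of absorptive epithelia and of the early forebrain neuroepithelium. It had 48.7, 63.9, 46.4 and 56.7 normalized counts in the KO libraries R1 to R4, and 60.6, 37.7, 59.5 and 87.8 in the WT libraries. Both the lowest and the highest value of *Lrp2* were WT libraries, and its interval was the widest of the family (log2 fold change -0.17, 95% interval -0.70 to 0.37, edgeR adjusted p = 0.908). With counts this low, a difference of *Lrp2* within that interval was not detectable. *Sorl1* (chromosome 9, 41772803 to 41932380) encodes a sorting receptor that directs amyloid precursor protein between endosomes and the Golgi, and 185 of its exon bases are shared with an antisense gene model. It had 1839, 2036, 2129 and 1610.1 normalized counts in the KO libraries R1 to R4 and 1936, 1657, 2484 and 1491 in the WT libraries. The WT libraries of *Sorl1* enclosed all KO libraries (log2 fold change 0.01, 95% interval -0.31 to 0.32, edgeR adjusted p = 0.995).

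The Reelin receptors *Lrp8*, also called ApoER2, and *Vldlr* pass the Reelin signal to the adaptor DAB1 in migrating neurons. *Lrp8* (chromosome 4, 107474866 to 107549445) had 3467, 3486, 3558 and 3287 normalized counts in the KO libraries R1 to R4, and 3511, 3538, 3913 and 2665 in the WT libraries. Its KO libraries were close together, with a coefficient of variation of 3.34% against 15.5% in WT, and lay inside the WT range (log2 fold change 0.02, 95% interval -0.20 to 0.23, edgeR adjusted p = 0.983). *Vldlr* (chromosome 19, 27290974 to 27328721) had 1614, 1862, 1649.8 and 1883 normalized counts in the KO libraries and 1544, 1612, 1811 and 1632 in the WT libraries. With the smallest p of the 9 genes, *Vldlr* still did not pass (log2 fold change 0.09, 95% interval -0.07 to 0.24, edgeR adjusted p = 0.827).

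*Lrp5* and *Lrp6*, the co-receptors that Wnt ligands join to Frizzled receptors, did not pass either. *Lrp5* (chromosome 19, 3584825 to 3686564) lay between 462 and 618 normalized counts in KO and between 377 and 548 in WT (log2 fold change 0.08, 95% interval -0.19 to 0.36, edgeR adjusted p = 0.912). *Lrp6* (chromosome 6, 134396494 to 134516983) lay between 1124 and 1260.4 in KO and between 956 and 1396 in WT (log2 fold change -0.05, 95% interval -0.28 to 0.18, edgeR adjusted p = 0.949). For both, the lowest of the 8 libraries was WT library R4. The highest for *Lrp5* was KO library R1, and without it the log2 fold change of *Lrp5* was 0.007.

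*Lrp4* (chromosome 2, 91297668 to 91354058), the receptor for agrin at the neuromuscular junction, lay between 437 and 573 normalized counts in KO and between 407 and 663 in WT (log2 fold change -0.03, 95% interval -0.33 to 0.28, edgeR adjusted p = 0.980). *Lrp12* (chromosome 15, 39702149 to 39775540), a smaller receptor with CUB domains beside its ligand-binding repeats, lay between 764 and 865 in KO and between 644 and 883 in WT (log2 fold change 0.05, 95% interval -0.15 to 0.25, edgeR adjusted p = 0.926). As in *Lrp5* and *Lrp6*, WT library R4 was the lowest.

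Of the 9 genes other than *Lrp1b*, 0 passed an adjusted p of 0.05 with edgeR, against 0.0709% of all genes tested, and 0 passed it with DESeq2. In its first analysis, at low stringency, the study set 0.25 for the absolute log2 fold change and 0.05 for the unadjusted p. For genes shared between cortex and cultured neurons it used a stricter p. The first pair is named the thresholds of the study here, and by it 0 of the 9 were called, against 4.25% of all genes. Without the fold change threshold, 0 had an unadjusted p under 0.05, against 7.69% of all genes. In 0 of the 9 did the genotypes not overlap, against 4.49% of all genes. By sign alone, 6 were higher and 3 lower in KO, with a median log2 fold change of 0.02 against -0.01 over all genes. These signs depended on single libraries, with 3 higher without WT library R4 and 8 higher without WT library R3. WT library R4 was the lowest of the 8 in 6 of the 9 genes, with a median deviation of -0.29 on the log2 scale, and the part of its low projection neuron markers in this was not tested. Without WT library R4, log2 fold changes were -0.10 for *Lrp4*, -0.011 for *Lrp5* and -0.14 for *Lrp6*. They were -0.076 for *Lrp8*, -0.012 for *Lrp12* and -0.080 for *Sorl1*. In that fit *Lrp6* had an edgeR unadjusted p of 0.046 and an adjusted p of 0.395. With all libraries, the highest upper bound among the 9 intervals was 0.37, for *Lrp2*. The summed normalized counts of the 9 genes were 25339 ± 349 in KO and 24644 ± 2208 in WT (n = 4 each).

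**Figure D2:**
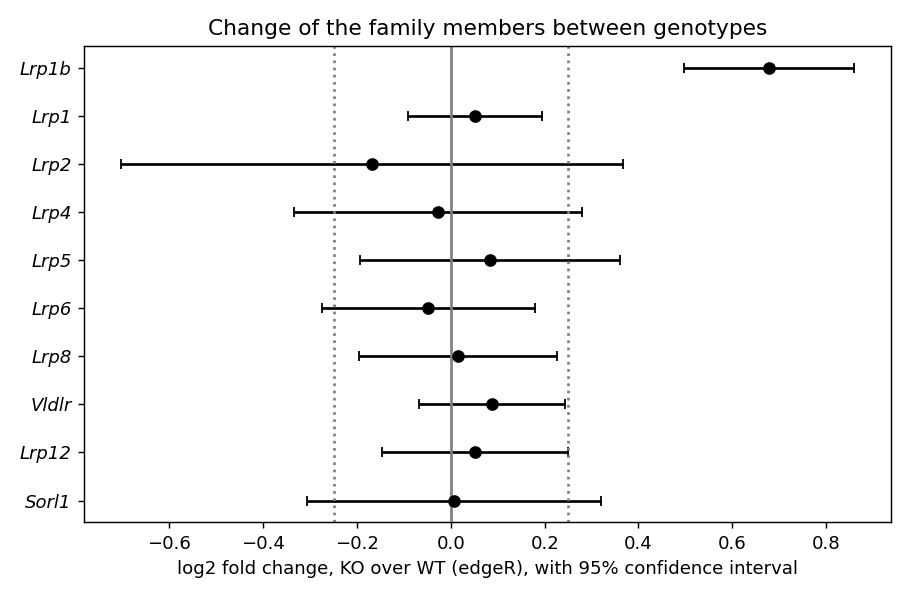
Log2 fold change of KO over WT for the 10 genes from edgeR, with 95% confidence intervals; dotted lines mark the 0.25 threshold of the study in each direction. *Lrp1b*, which was selected on this contrast, stands at 0.68, and the intervals of the other 9 genes all include 0.

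Levels of different genes can be compared only per length, and are given as CPM per kilobase of exon, over the union of a gene's exons. On this scale *Lrp1* was the highest in WT cortex at 50.0 ± 4.19 and *Lrp8* second at 19.6 ± 3.04, each without overlap with the gene below it. *Lrp12*, *Sorl1* and *Vldlr* followed at 10.1 ± 1.30, 10.1 ± 2.33 and 9.92 ± 0.685, and their libraries overlapped. *Lrp6* at 7.65 ± 1.24 and *Lrp5* at 5.75 ± 0.914 overlapped with each other. Of the genes next in order, *Vldlr* did not overlap with *Lrp6*, nor *Lrp4* with *Lrp5*. *Lrp6* reached 8.60 and so overlapped with *Lrp12*, from 8.52, and *Sorl1*, from 7.98. *Lrp4* stood at 2.88 ± 0.633. *Lrp1b* was the ninth of the 10 genes in both genotypes, at 0.967 ± 0.0856 in WT and 1.54 ± 0.0885 in KO, and *Lrp2* the lowest at 0.223 ± 0.0745 in WT and 0.195 ± 0.0288 in KO. In KO the order was the same apart from *Vldlr* and *Sorl1*, which changed places and overlapped. *Lrp1b* overlapped with neither *Lrp4* nor *Lrp2* in either genotype. Over the length of the longest transcript in place of all exons, the level of *Lrp1b* was 1.37 in WT and 2.19 in KO, again ninth. *Vldlr* moved in WT from the place below *Sorl1* to the one above *Lrp12*. By that length *Lrp6* overlapped in WT with *Sorl1* above it, and *Lrp5* with *Lrp4* below it.

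**Figure D3:**
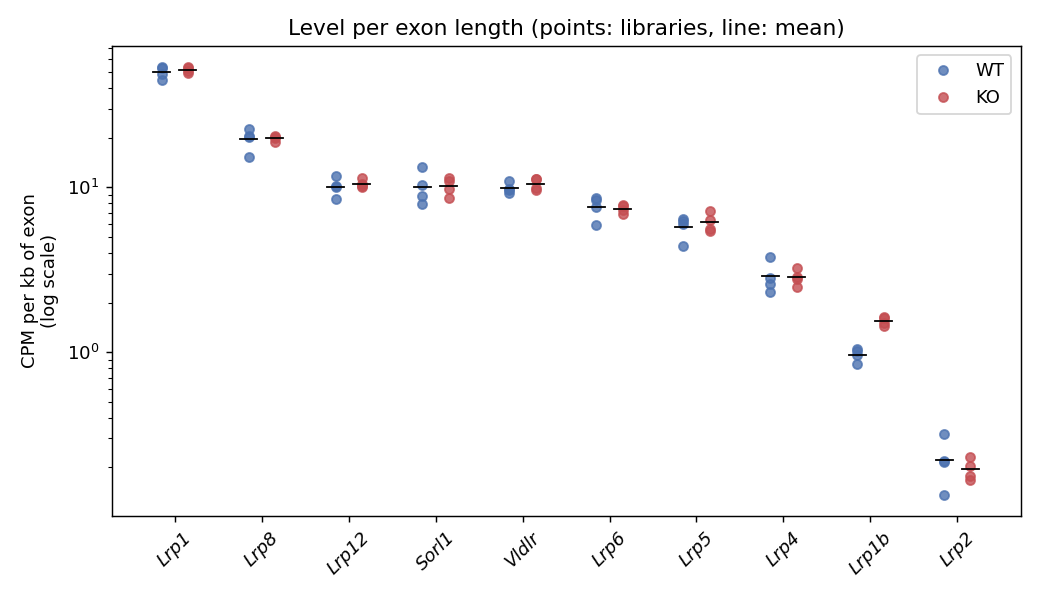
Level of the 10 genes per exon length, in CPM per kilobase of exon on a log scale, with 1 point per library for WT (blue) and KO (red) and a line at the mean. *Lrp1* is at the top, at 50.0 in WT, and *Lrp1b* is ninth in both genotypes, at 0.967 in WT and 1.54 in KO.

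The span of *Lrp1b* was the fourth largest of the 34 tested genes that spanned over 1 Mb. Of these 34 genes, 18 were higher and 16 lower in KO by sign, with a median log2 fold change of 0.01. At the thresholds of the study 3 were called higher, *Lrp1b* among them, and 2 lower, which is 14.7% against 4.25% of all genes, or 2.45% in the higher and 1.8% in the lower direction. Without *Lrp1b*, which was selected on this contrast, 2 of the remaining 33 genes were called higher and 2 lower, which is 12.1%. *Lrp1b*, by the contrast that selected it, had the highest log2 fold change of the 34, and no other gene among them passed an adjusted p of 0.05 with edgeR. Genes spanning over 0.5 Mb numbered 155, with 14 called higher, *Lrp1b* again among them, and 8 lower, and a median of -0.01. With *Lrp1b* included, the called share was 14.2%, against 4.25% of all genes.

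Partners of the family were examined in 7 lists. Of the 125 listed genes found in the table, 104 passed the filter on low counts, and the other 21 reached at most 24 counts in any library. By sign 48 were higher and 56 lower in KO, with a median log2 fold change of -0.00440. The share higher by sign was 46.2%, against 45.6% of all genes tested. At the thresholds of the study 4 were called higher and 1 lower, which is 4.81% against the 4.25% of all genes, so the share was near the background. With edgeR 0 passed an adjusted p of 0.05 and 9 had an unadjusted p under 0.05, which is 8.65% against 7.69% of all genes, and DESeq2 called 1 after adjustment, *Ptn*.

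Relatives of the family outside the 10 genes were 10 after filtering, 4 higher and 6 lower by sign, with 2 called higher. *Sorcs1*, a sorting receptor related to *Sorl1* by its VPS10P domain, had 602, 502, 556 and 836 normalized counts in the KO libraries R1 to R4 and 512, 259, 395 and 417 in the WT libraries. WT library R1 lay above KO library R2, so the genotypes of *Sorcs1* overlapped (log2 fold change 0.67, standard error 0.20, edgeR adjusted p = 0.483). *D18Ertd653e*, the older symbol of *Ldlrad4*, an inhibitor of TGF-beta signalling, was higher in KO with 319.6 ± 21.9 against 268 ± 24.4 (n = 4 each; log2 fold change 0.25, standard error 0.09, edgeR adjusted p = 0.591).

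Ligands numbered 15 after filtering, 9 higher and 6 lower by sign, with a median log2 fold change of 0.06 and 1 called. *Ptn*, which encodes the secreted growth factor pleiotrophin, had 15209, 11398, 14035 and 14684 normalized counts in the KO libraries R1 to R4 and 9702, 8237, 7279.7 and 9528 in the WT libraries. The genotypes of *Ptn* did not overlap, with means of 13832 ± 1692 and 8687 ± 1143 (n = 4 each). Its log2 fold change was 0.67 with a standard error of 0.11, and the adjusted p was 0.0645 with edgeR and 1.65e-06 with DESeq2. Without KO library R1, the highest for *Ptn* and the one with the high meningeal markers, the log2 fold change was 0.63 (edgeR adjusted p = 0.206), and the part of those markers in the value was not tested. *Reln*, the ligand of *Lrp8* and *Vldlr*, had 14416 ± 595 normalized counts in KO and 13873 ± 1504 in WT (n = 4 each; log2 fold change 0.06, edgeR adjusted p = 0.904). *Apoe*, the main apolipoprotein of the brain, varied more between libraries of a genotype than between genotypes. It ranged from 780.4 to 1621 in KO and from 539 to 1926 in WT (log2 fold change 0.11, edgeR adjusted p = 0.964). The log2 fold change of *Apoe* was -0.096 without KO library R1 and 0.54 without WT library R4.

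Chaperones, sorting factors and proteases of the family, 19 genes such as the secretases that cleave these receptors, were 9 higher and 10 lower by sign, and 0 were called. The 13 tested adaptors that bind receptor tails were 6 higher and 7 lower, with 0 called. Among 18 genes of Reelin signalling inside the cell, 11 were higher and 7 lower, with 0 called and a median log2 fold change of 0.01. *Dab1*, the adaptor at the head of that pathway, was not analysed here.

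Of the 28 tested genes around the Wnt co-receptors, 8 were higher and 20 lower by sign, with a median log2 fold change of -0.04. The share higher by sign was 28.6%, against 45.6% of all genes tested, and the list as a set was not tested. The 1 called was *Rspo3*, a secreted enhancer of Wnt signalling, with 171 ± 34.9 normalized counts in KO and 227 ± 43.8 in WT (n = 4 each; log2 fold change -0.42, standard error 0.17, edgeR adjusted p = 0.629). Among partners of *Lrp4*, 2 genes passed the filter. *Agrn*, which encodes agrin, had 14877 ± 1025 normalized counts in KO and 14245 ± 909 in WT (n = 4 each; log2 fold change 0.06, edgeR adjusted p = 0.868). *Dok7*, an adaptor of the muscle kinase that *Lrp4* activates, was called with 111 ± 15.0 in KO and 85.0 ± 11.1 in WT (n = 4 each; log2 fold change 0.39, standard error 0.15, edgeR adjusted p = 0.624). The calls of *D18Ertd653e*, *Rspo3* and *Dok7* were each lost when 1 of several libraries was left out, with log2 fold changes down to 0.21, -0.30 and 0.30 (without WT library R3, WT library R2 and KO library R4, respectively). With all libraries, the call of *D18Ertd653e* was also lost on removal of the length trend, at 0.24.

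**Figure D4:**
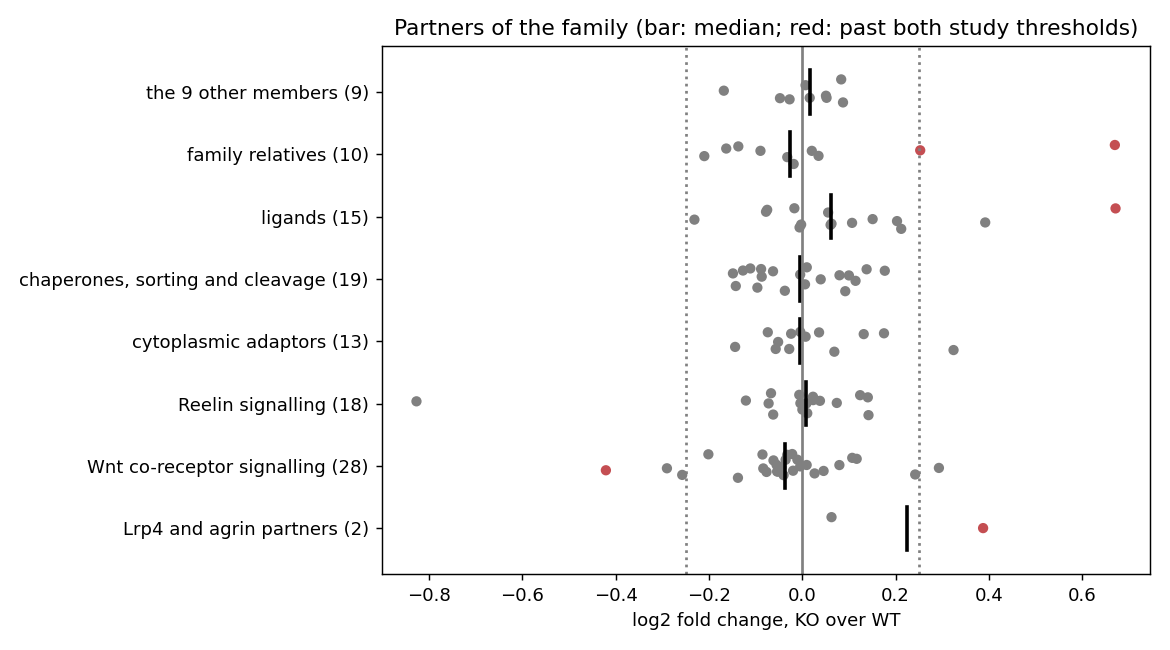
Log2 fold change of KO over WT for the 9 other family members and the tested genes of 7 lists of partners, with list sizes in brackets; each point is a gene, the bar is the list's median, dotted lines mark 0.25 in each direction and red points passed both thresholds of the study. The 5 genes past the thresholds lie in 4 lists, with *Agrn* plotted in 2 lists, and the list medians lie near 0 apart from the 2 partners of *Lrp4*.

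The genes whose profile over the 8 libraries was nearest to that of *Lrp1b* were sought among 9340 genes with a mean log2 CPM of at least 3, by the root mean square difference of log2 CPM after subtracting each gene's mean. The nearest were *Ptn* at 0.098, *Cdh12* at 0.126, *Ptprk* at 0.129, *Pth1r* at 0.144 and *Lhfp* at 0.145 on the log2 scale. *Cdh12* encodes a cadherin, *Ptprk* a receptor tyrosine phosphatase and *Pth1r* the receptor for parathyroid hormone. Likeness to *Lrp1b* selects genes that are higher in KO, so their fold changes, 0.63 for *Cdh12*, 0.55 for *Ptprk* and 0.64 for both *Pth1r* and *Lhfp*, are a description. *Lrp1*, the nearest of the other family members, was at rank 2169 with a difference of 0.337, *Vldlr* was next at rank 2175, and *Lrp4* was the farthest ranked at 8195. *Lrp2* was below the minimum level.

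After centring within each genotype, which removes the genotype difference, the nearest to *Lrp1b* were *Fam131b* at 0.020, *Phactr1* at 0.025, *Ndufs7* at 0.033, *Gpd1l* at 0.036 and *St3gal3* at 0.037. None of the 5 nearest was shared between both ways of centring. Of these, *Phactr1* encodes a regulator of actin and phosphatase 1, *Ndufs7* a subunit of respiratory complex I and *St3gal3* a sialyltransferase. Their log2 fold changes between genotypes lay from -0.05 for *Fam131b* to 0.08 for *Gpd1l*. These 5 were the closest of 9340 genes over 8 libraries, and *Lrp1b* had only 230 to 991 raw counts per library. Whether the likeness goes beyond sampling noise was not tested.

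**Figure D5:**
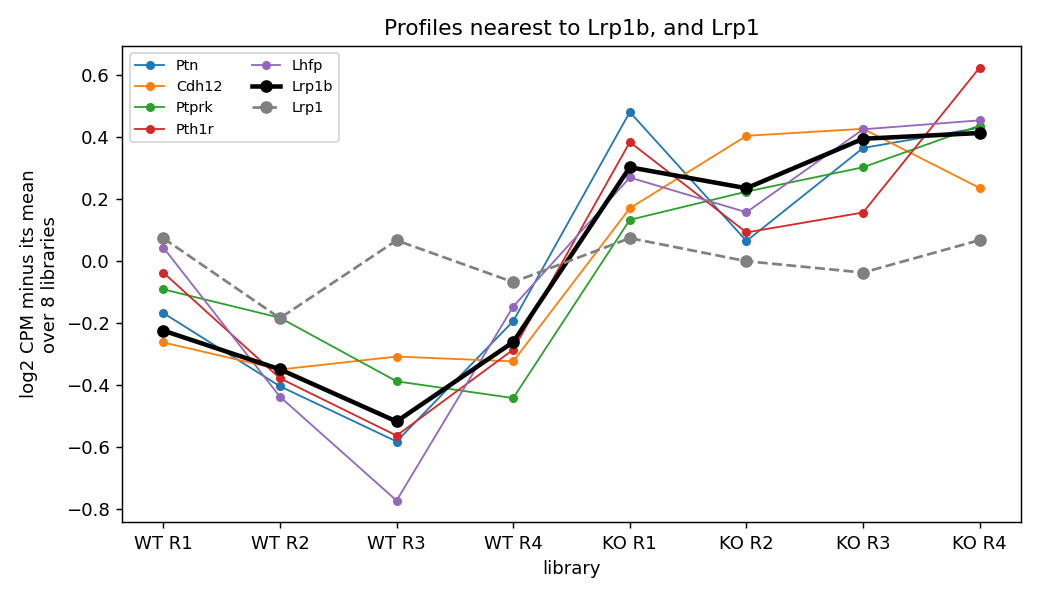
Log2 CPM minus the gene's mean over the 8 libraries for *Lrp1b* (thick black), the 5 genes nearest to it (thin colours) and *Lrp1* (dashed grey); points are single libraries and lines join them only to guide the eye. *Lrp1b* runs from -0.52 in WT library R3 to 0.41 in KO library R4, and *Lrp1* stays between -0.18 and 0.07.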

How the data were processed

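RNA was sequenced as 100 bp paired reads from a stranded poly-A library per embryo. The authors trimmed reads with Cutadapt 1.13, used TopHat2 2.0.13 with SAMtools 0.1.19 to place them on mm9, and summed reads by gene in HTSeq-count. The deposited values are raw whole-number counts in 21165 rows, and 4641 rows are empty in all libraries. The strand setting of the counting is not given in the sources used here. The table has 0 further columns of per-library values. Counts of a gene with near-identical copies or an antisense partner are less certain. An antisense transcript overlaps 185 exon bases of *Sorl1*.

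KO was compared with WT over all 8 libraries by edgeR's quasi-likelihood test (edgeR 4.0.16 in R 4.3.3), after TMM scaling and edgeR's filterByExpr, with Benjamini-Hochberg adjustment over the 12699 genes tested. Standard errors were derived from the log2 fold change and its F statistic. Alternatives were DESeq2, here in version 1.42.0, and its size factors in edgeR. DESeq2 was also the tool of the authors. Further alternatives were no filter, a minimum of 10 counts per library, a loess correction for exon length, and each library left out. The code was tested on simulated data. The precision is limited by 4 libraries per genotype and, for *Lrp2*, by counts between 38 and 84 per library. The labels name separate embryos, so p-values measure the spread between embryos.

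Positions and lengths were taken from GENCODE on NCBIM37, where 92.5% of rows matched a single gene model. Proteins were translated from the GENCODE coding sequences, in place of RefSeq proteins that had been planned, and aligned with Biopython 1.88. Members and lists were chosen with earlier results of these data known. The genes named are the 10 members, *Nuak1*, *Reln*, *Apoe*, *Agrn* and *Dab1* (a further gene of this rule is not reported here), up to 5 genes per list past the thresholds of the study, genes spanning over 1 Mb past an adjusted p of 0.05, and the 5 nearest profiles under each centring. Genes flanking *Lrp1b* were named after their values were seen.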

Additional observations from a re-analysis of the deposited data

How the results depend on the processing

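The log2 fold change of *Lrp1b* was 0.68 to 0.70 under the other tool, scaling, filters and length correction, and 0.63 to 0.72 with 1 library left out. In all 13 alternatives 0 of the other 9 members were called by either rule. With 1 library left out, values near 0 changed sign, over -0.36 to 0.043 for *Lrp2*, -0.10 to 0.13 for *Lrp4*, -0.011 to 0.14 for *Lrp5*, -0.14 to 0.016 for *Lrp6*, -0.076 to 0.093 for *Lrp8*, -0.012 to 0.13 for *Lrp12*, -0.080 to 0.17 for *Sorl1*, -0.015 to 0.10 for *Reln*, -0.11 to 0.54 for *Apoe*, -0.071 to 0.012 for *Phactr1*, -0.014 to 0.074 for *Ndufs7*, -0.054 to 0.076 for *Scai* and -0.014 to 0.10 for *Ppp6c*. *Ndufs7* was -0.00836 with the length trend removed. The 5 partner genes called at the thresholds of the study became 2 to 8 with 1 library left out (2 without KO library R4, 3 without WT library R2 or R3, 8 without WT library R4). At an adjusted p of 0.05, 0 partner genes became 1, *Ptn*, with DESeq2, without the filter, with the length trend removed and without KO library R2, and leaving out each library gave 0 to 1. Its adjusted p ranged from 1.65e-06 to 0.263 over the alternatives. The 5 called genes spanning over 1 Mb became 3 with DESeq2 and 3 to 7 with 1 library left out (3 without KO library R3). The cause was not tested. Over all genes, 9 passed an adjusted p of 0.05 with edgeR and 70 with DESeq2, and leaving out each library gave 426 to 847 genes at the thresholds of the study. No paired analysis was possible because library names give genotype and number alone, so litter as a replicate block was not run. The names do not give sex either, and it was not read from the counts, so sex as a covariate was not run.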

Other observations

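The tested genes that flank *Lrp1b* on chromosome 2, 3 on each side, were looked at after their values were seen, and no p is given for them. On one side *Golga1*, *Scai* and *Ppp6c* had log2 fold changes of -0.10, 0.02 and 0.05 (standard errors 0.07, 0.10 and 0.08), with *Ppp6c* the nearest at 1.37 Mb. On the other side *Arhgap15*, at 1.10 Mb, had 29.6 ± 8.79 normalized counts in the 4 KO libraries and 18.4 ± 6.33 (SD) in the 4 WT libraries, and its genotypes overlapped (log2 fold change 0.73, standard error 0.32). *Gtdc1*, at 1.91 Mb, had a log2 fold change of 0.10 (standard error 0.07). *Zeb2*, a transcription factor of cortical neurons and interneurons at 2.33 Mb, had 6303, 5733, 6836 and 6282 normalized counts in the KO libraries R1 to R4 and 5680.2, 5707, 4184 and 3629.8 in the WT libraries. All KO libraries of *Zeb2* lay above all WT libraries, with a gap of less than the SD of either genotype between KO library R2 and WT library R2, and the log2 fold change was 0.39 (standard error 0.13), or 0.28 without WT library R4, the lowest. By the thresholds of the study, which 4.25% of all genes tested passed, *Arhgap15* and *Zeb2* were both called. In 4.49% of all genes tested the genotypes did not overlap. Since the flanking genes were named after their values were seen, these calls are a description and no test is read from them. *Arhgap15* was no longer called with DESeq2, nor when any 1 of 6 libraries was left out, with log2 fold changes down to 0.50 without WT library R2.

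*Lrp1* lies on the same chromosome as the targeted gene, with 43.1 Mb between *Lrp1* and *Nuak1*. Its level did not differ beyond the spread between libraries, as given with the other members.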
